A study of Homo sapiens with 4 samples.

Results

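Human miRNAs carry serial numbers in order of their discovery, and the entries described here are those numbered 550 to 999 that had at least 50 reads summed over the 4 small RNA libraries of the series. They were chosen by number and by their read totals, and some numbers were left out, so 70 of the 2656 entries of the deposited table were members. The table held 235 entries in this number range. Of these, 48 belonged to numbers that were left out, 117 fell under the minimum, and 76 of those 117 had no read in any library. Just inside the minimum were miR-939-5p with 62 reads, miR-642a-5p with 69 and miR-589-3p with 77, and just outside were miR-579-3p with 45, miR-610 with 38 and miR-627-5p with 36. Because the read totals chose the members, their levels are a description. Of the entries with numbers that were left out, 21 entered the test, and 5 were called higher and 4 lower in CAG cells. Among all 773 tested miRNAs, 8.15% were called higher and 6.08% lower. How many members were called therefore depends in part on that choice.

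All libraries came from HEK293T, a human embryonic kidney line that carries the SV40 large T antigen. Each cell line had a landing pad, an engineered genomic site that accepts a transgene, with either the PGK promoter (of the phosphoglycerate kinase gene) or the CAG promoter (a cytomegalovirus enhancer joined to chicken beta-actin sequence). The study asked which miRNAs differ between the lines. There were 2 PGK and 2 CAG libraries, and each line was described as monoclonal. A difference between the groups can belong to the promoter or to the clone, which cannot be told apart. Nothing in the labels says that replicates were separate cultures, so p-values measure only the spread between these 4 libraries.

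A miRNA is cut from a hairpin transcript by Drosha and Dicer. The hairpin yields a product from each arm, named 5p and 3p, and usually one of them is loaded into an Argonaute protein while the other is degraded. Bases 2 to 8 of the loaded strand, the seed, pair with target mRNAs. Many hairpins sit in introns of protein-coding genes and are made from the same primary transcript as the host mRNA.

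The libraries held 7927615 (PGK replicate 1), 7331437 (PGK replicate 2), 13780279 (CAG replicate 1) and 2845945 (CAG replicate 2) miRNA reads. Levels are given as CPM, read counts scaled to a common library total with TMM factors; 1 read equalled between 0.0777 CPM (CAG replicate 1) and 0.324 CPM (CAG replicate 2). The 70 members took 1.45% to 1.52% of all miRNA reads in every library, and each member had a read in all 4 libraries. Marker miRNAs of other cells were checked against the HEK293T label. The 4 blood markers summed to 0.854 to 1.62 CPM in the libraries, with miR-223-3p at 0 reads, and the 4 stem cell markers summed to 0.125 to 0.388 CPM, with 3 of 4 at 0 reads. Muscle markers summed to 96.1 and 106 CPM in PGK against 15.6 and 16.8 CPM in CAG libraries, nearly all of it miR-1-3p. Both miR-1-3p and miR-133a-3p were called lower in CAG cells, and miR-206 had 1 read in all. Other lists held abundant miRNAs. The 3 neuron markers summed to 15700 to 21700 CPM, mostly miR-128-3p and miR-9-5p, with miR-124-3p at 4 reads in all. Of these, miR-9-5p was called lower in CAG cells (means of 3990 and 1913 CPM in the PGK and CAG groups), and miR-128-3p was not called. The endothelial marker miR-126-3p stood at 1080 to 1730 CPM and the 3 epithelial markers at 44.9 to 71.3 CPM, of which miR-200c-3p was called higher and miR-200b-3p lower in CAG cells. The liver marker miR-122-5p had at most 2.65 CPM. Among mesenchymal markers, miR-143-3p was called higher in CAG cells, miR-199a-3p was not called (means of 22.1 and 40.6 CPM in the PGK and CAG groups) and miR-145-5p had 6 reads in all. The part of these differences in the results on members was not tested.

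RefSeq (GRCh38.p14) gave a mature sequence for 61 of the 70 members, 20 to 25 bases long. The sequences below run 5′ to 3′ with the seed in capitals. The first 4 are the most abundant members, the next 8 are the members whose level differed between the lines, and the last 4 are members that share a seed with each other.
miR-941: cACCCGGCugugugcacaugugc
miR-744-5p: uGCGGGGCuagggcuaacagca
miR-629-5p: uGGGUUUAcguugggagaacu
miR-769-5p: uGAGACCUcuggguucugagcu
miR-642a-3p: aGACACAUuuggagagggaacc
miR-943: cUGACUGUugccguccuccag
miR-935: cCAGUUACcgcuuccgcuaccgc
miR-874-3p: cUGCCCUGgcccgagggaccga
miR-592: uUGUGUCAauaugcgaugaugu
miR-653-5p: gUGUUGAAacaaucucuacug
miR-625-5p: aGGGGGAAaguucuauagucc
miR-574-5p: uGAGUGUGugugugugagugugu
miR-550a-5p: aGUGCCUGagggaguaagagccc
miR-550a-3-5p: aGUGCCUGagggaguaagag
miR-551a: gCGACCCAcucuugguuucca
miR-551b-3p: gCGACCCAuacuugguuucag

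The members with a sequence had 59 distinct seeds, and 49 of them had a seed that no other table entry with a sequence shared. The second deposited table counts reads per seed, and in it 54 of the 61 members held at least 99% of the reads of their seed family. The other 7 shared a family. The GUGCCUG family was split between miR-550a-3-5p with 57.8% (95% exact binomial interval 56.8% to 58.8%) and miR-550a-5p with 41.4%. As the lines above show, the shorter of these sequences is contained whole in the longer one, so how reads were divided between both entries is uncertain. In the CGACCCA family miR-551b-3p held 61.4% and 50% of reads in PGK replicates 1 and 2, against 70.3% and 65.5% in CAG replicates 1 and 2, and miR-551a held the rest. The CAG shares were both above the PGK shares, but the family had only 507 reads in all and this difference was not tested. miR-573 held 78.0% of its family, miR-616-5p 96.2% and miR-642a-3p 98.1%. Intervals cover counting error only, because reads amplified by PCR without molecular identifiers are not independent molecules.

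Argonaute proteins favour strands that begin with U. Of the 16 members with a sequence and a mean of at least 100 CPM, 9 began with U, and of the 14 with a mean under 10 CPM, 3 did. Among hairpins with both arms among the members and both sequences at hand, the more abundant arm began with U in 9 of 18 and the less abundant arm in 5 of 18. Over all 622 table entries with a sequence and at least 50 reads, 42.3% began with U, against 37.7% of the members. These shares are descriptions with no test.

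Levels spanned a wide range. A few members were abundant: 3 had a mean of at least 1000 CPM over the 4 libraries, 15 lay between 100 and 1000 CPM, 34 between 10 and 100 CPM and 18 under 10 CPM, with a median of 23.6 CPM. Ligation and PCR preferences differ between sequences, a bias which blurs the order of members by level more than it blurs a comparison of the lines. miR-941 led, a miRNA known only in humans, whose hairpins lie as 5 tandem copies in an intron of DNAJC5, a gene for a chaperone of synaptic vesicles (chromosome 20, 63919449 to 63919939 for the first and last copy, plus strand, GRCh38, GENCODE 29). The deposited entry does not separate the copies. It stood at 4817 and 4856 CPM in PGK and at 5789 and 3789 CPM in CAG replicates 1 and 2, the 34th most abundant of all miRNAs. The CAG libraries lay on either side of the PGK libraries, and the log2 fold change, CAG minus PGK, was −0.01 (SE 0.20).

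miR-744-5p followed, from an intron of MAP2K4, a kinase of the JNK stress pathway (chromosome 17, 12081899 to 12081996, plus strand). Its levels were 2706 and 2741 CPM in PGK and 2590.4 and 3060.0 CPM in CAG libraries, so the groups overlapped (log2 fold change 0.05, SE 0.17). miR-629-5p, in an intron of the corepressor gene TLE3 (chromosome 15, 70079372 to 70079468, minus strand), stood at 1778 and 1445 CPM in PGK and 1813 and 1806 CPM in CAG libraries. miR-769-5p, in an intron of CCDC61 (chromosome 19, 46018932 to 46019049, plus strand), was the steadiest of the 4 most abundant members, at 949.6 and 964 CPM in PGK and 1024 and 947 CPM in CAG libraries. These 4 miRNAs together took 67.7% to 71.1% of all member reads in a library, and miR-941 alone took 27.1% to 36.7%.

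The next members by level were miR-652-3p, miR-589-5p, miR-582-3p, miR-598-3p, miR-671-3p, miR-618, miR-625-3p and miR-760, with means of 417 down to 236 CPM. None of them passed the test, but in 6 of these 8 the groups did not overlap, as in 57.2% of all tested miRNAs. miR-652-3p, in an intron of TMEM164 on the X chromosome, had 489 and 481 CPM in PGK and 320.2 and 376 CPM in CAG libraries (log2 fold change −0.48, SE 0.18; edgeR adjusted p = 0.108). Without CAG replicate 2 it was called lower (edgeR adjusted p = 0.029). miR-618, in an intron of the cell polarity gene LIN7A, had 290.3 and 316 CPM in PGK and 235 and 158 CPM in CAG libraries (−0.62, SE 0.22; edgeR adjusted p = 0.0900), and it was called lower without CAG replicate 1 (edgeR adjusted p = 0.00203). miR-598-3p, in an intron of XKR6, and miR-760, on the strand opposite BCAR3, were both at a higher level in the CAG libraries than in either PGK library, by 0.38 (SE 0.19) and 0.25 (SE 0.18) on the log2 scale.

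**Figure D1:**
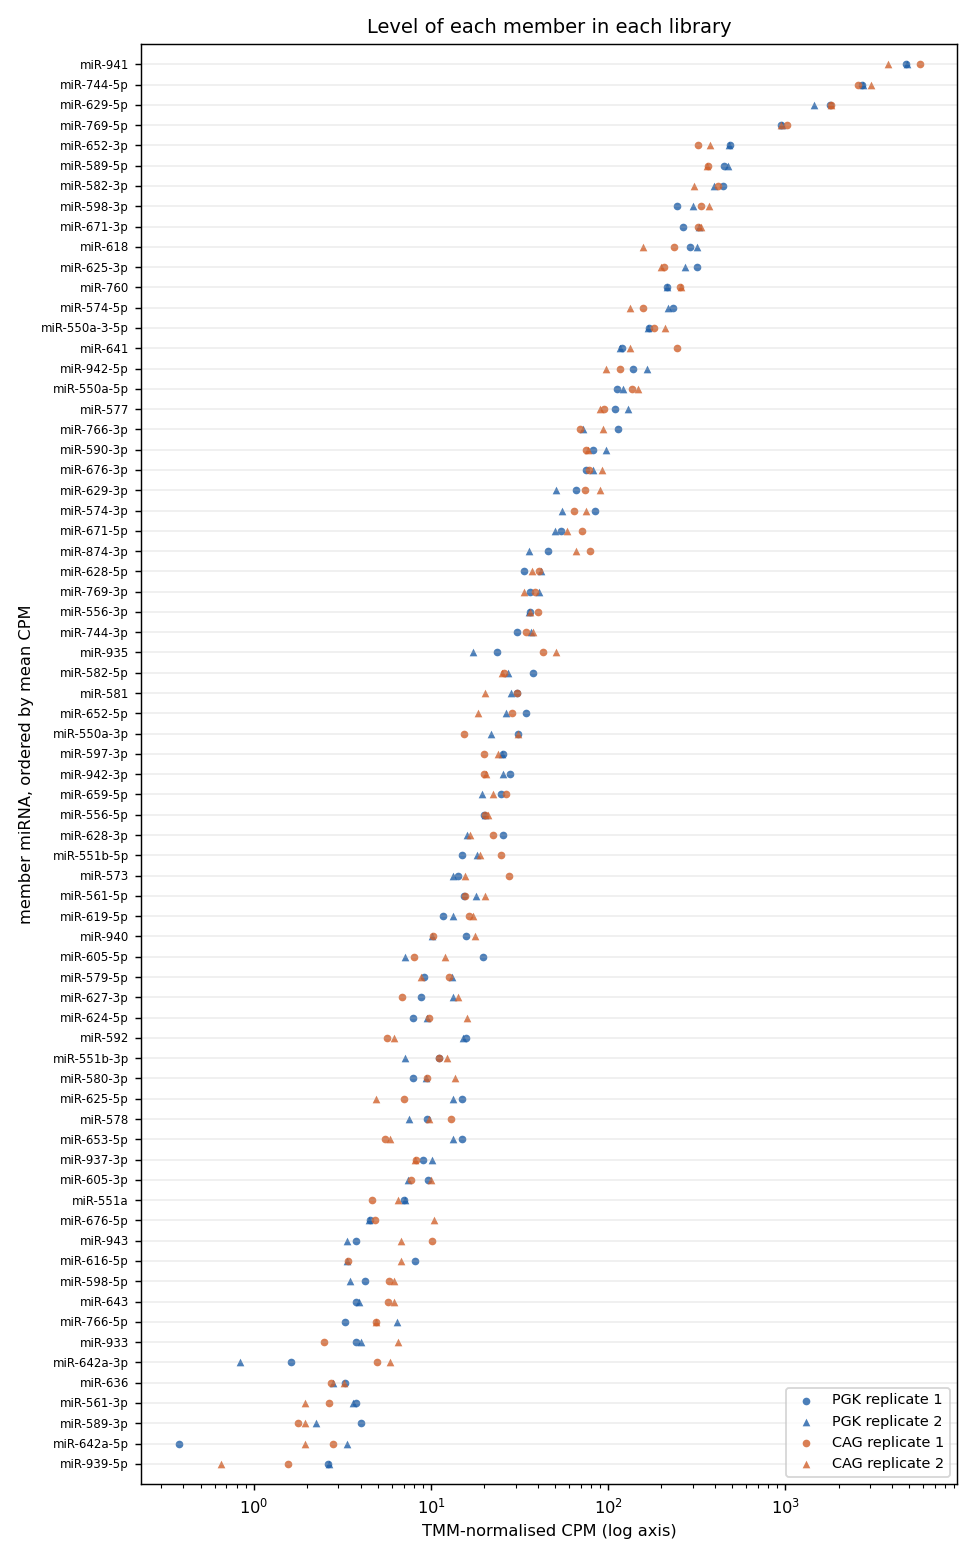
Level of each of the 70 members in each library, as TMM-normalised CPM on a log axis, ordered by mean; blue marks PGK, orange CAG, circles replicate 1 and triangles replicate 2. miR-941, miR-744-5p and miR-629-5p stand above 1000 CPM, and 34 of the 70 members lie between 10 and 100 CPM.

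Few members differed between the lines. All 70 passed the low-count filter, and 4 were higher and 4 lower in CAG than in PGK cells, 11.4% of the members (edgeR quasi-likelihood test, adjusted p under 0.05 over 773 miRNAs). Among all 773 tested miRNAs 14.2% were called, 8.15% higher and 6.08% lower, so the members' share is near that background. At an unadjusted p under 0.05 the test counted 14 members, against 26.9% of all tested miRNAs. The median log2 fold change was 0.01 over the members and −0.0042 over all tested miRNAs, and 35 members had a fold change above 0 and 35 below. In 42 of the 70 members, 60%, the PGK and CAG libraries did not overlap (23 with CAG above and 19 with CAG below). Among all tested miRNAs the share was 57.2% (29.8% with CAG above and 27.4% with CAG below).

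**Figure D2:**
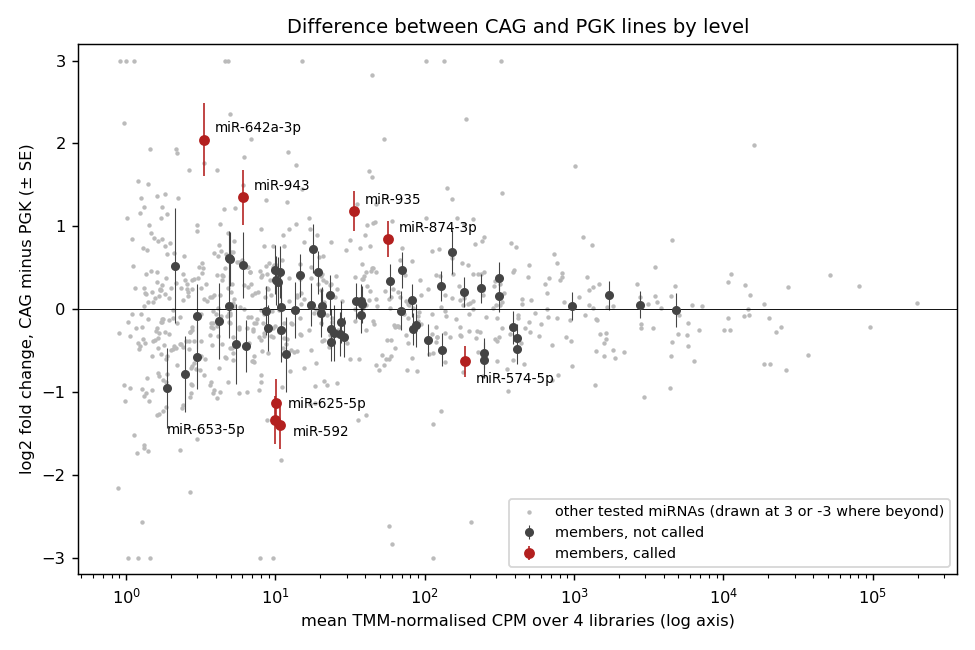
Log2 fold change of CAG over PGK against mean CPM (log axis) for the 70 members (black, and red where called; bars are SE) and for the other tested miRNAs (grey, drawn at 3 or −3 where they lie beyond). The 8 called members all have means under 200 CPM, and the members above 200 CPM lie within 0.7 of 0.

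The 4 higher members came from 4 hairpins. miR-642a-3p had the largest fold change, from a hairpin in an intron of GIPR, the receptor of a gut incretin hormone (chromosome 19, 45674928 to 45675024, plus strand). It had 13 and 6 reads in PGK and 64 and 18 in CAG replicates 1 and 2, or 1.63 and 0.837 against 4.97 and 5.83 CPM. Both CAG libraries lay above both PGK libraries, by 2.05 on the log2 scale (SE 0.44; edgeR adjusted p = 0.0112), 4.13-fold. With 19 reads over the PGK group this fold is loosely fixed, and it ran from 1.68 to 2.61 on the log2 scale over 10 alternatives. The entry differs by 1 edit from miR-642b-3p, which comes from the hairpin on the other strand and had 2 reads in all.

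miR-943 has a hairpin that overlaps an exon of NELFA, a subunit of the negative elongation factor that pauses RNA polymerase II (chromosome 4, 1986384 to 1986477, minus strand). It rose 2.55-fold, from 3.75 and 3.35 CPM in PGK to 10.2 and 6.81 CPM in CAG libraries (log2 fold change 1.35, SE 0.33; edgeR adjusted p = 0.0235). These levels rest on 30 and 24 reads in PGK and 131 and 21 in CAG replicates 1 and 2. The CAG libraries differed from each other but both lay above the PGK libraries. The call was lost with DESeq2 (adjusted p = 0.0817) and without CAG replicate 1 (edgeR adjusted p = 0.39).

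miR-935 overlaps an exon of an annotated transcript of CACNG8, a neuronal gene for an auxiliary subunit of AMPA-type glutamate receptors (chromosome 19, 53982307 to 53982397, plus strand). It stood at 23.7 and 17.3 CPM in PGK and at 43.1 and 50.9 CPM in CAG libraries, 20.5 ± 4.50 against 47.0 ± 5.51 CPM (mean ± SD, n = 2). The groups were well apart, 2.26-fold (log2 fold change 1.18, SE 0.24; edgeR adjusted p = 0.00879). miR-874-3p lies in an intron of KLHL3, a ubiquitin ligase adaptor of kidney salt handling (chromosome 5, 137647572 to 137647649, minus strand). It rose 1.80-fold, from 45.5 and 35.6 CPM in PGK to 79.3 and 65.5 CPM in CAG libraries (0.85, SE 0.22; edgeR adjusted p = 0.0285).

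The 4 lower members also came from 4 hairpins, and 3 of them stood near 10 CPM. miR-592 lies in an intron of GRM8, a metabotropic glutamate receptor gene (chromosome 7, 127058088 to 127058184, minus strand). It was at 15.8 and 15.1 CPM in PGK and at 5.67 and 6.16 CPM in CAG libraries. The replicates of each group were close and the groups far apart: it fell by 1.41 on the log2 scale (SE 0.28; edgeR adjusted p = 0.00756), 2.65-fold, with 234 reads in PGK and 92 in CAG libraries.

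miR-653-5p lies in an intron of CALCR, the calcitonin receptor gene, also on chromosome 7 (93482760 to 93482855, minus strand). It fell by 1.34 (SE 0.29; edgeR adjusted p = 0.0107), from 15.02 and 13.4 CPM in PGK to 5.51 and 5.83 CPM in CAG libraries. These levels rest on 120 and 96 reads in PGK and 71 and 18 in CAG replicates 1 and 2. The levels of miR-653-5p were close to those of miR-592 in every library, although the hairpins lie far apart on the chromosome. The neighbouring hairpin within 10 kb, MIR489, gave only 25 reads of miR-489-3p and no read of miR-489-5p, too few to enter the test. Of the 10 members with hairpins on chromosome 7, these were the 2 called, and of the 7 on chromosome 19, 2 were called, miR-642a-3p and miR-935 (14.2% of all tested miRNAs were called).

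miR-625-5p lies in an intron of FUT8, the enzyme of core fucosylation of N-glycans (chromosome 14, 65471102 to 65471186, plus strand). It fell by 1.13 (SE 0.29; edgeR adjusted p = 0.0285), from 14.9 and 13.2 CPM in PGK to 7.07 and 4.86 CPM in CAG libraries. These levels rest on 119 and 95 reads in PGK and 91 and 15 in CAG replicates 1 and 2. miR-625-5p is the minor arm of its hairpin. The major arm, miR-625-3p, stood at 316 and 271 CPM in PGK and 208 and 198 CPM in CAG libraries, a log2 fold change of −0.53 (SE 0.19) that was not called (edgeR adjusted p = 0.0877). Both CAG libraries were below both PGK libraries for each arm.

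miR-574-5p was the most abundant called member and had the highest adjusted p of the 8. Its call was lost with library size scaling (edgeR adjusted p = 0.0607), with no low-count filter (0.0914) and without CAG replicate 2 (0.0932). Its hairpin lies in an intron of FAM114A1 (chromosome 4, 38868032 to 38868127, plus strand), and the sequence above is built mostly of UG repeats. It fell by 0.63 (SE 0.19; edgeR adjusted p = 0.0479), from 233 and 218 CPM in PGK to 157 and 133 CPM in CAG libraries. The other arm, miR-574-3p, had 84.1 and 55.1 CPM in PGK and 63.8 and 74.9 CPM in CAG libraries, so its groups overlapped, with a log2 fold change of −0.02 (SE 0.24).

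Leaving out a library changed the number of calls in the members and in the whole table. Without PGK replicate 1 none of the 70 members was called by edgeR, and none without PGK replicate 2 (10 members at an unadjusted p under 0.05 in each case). Of all miRNAs tested, 2.29% and 1.89% were called in these fits. These fits take the remaining PGK library to be as variable as the CAG pair. Without CAG replicate 1, 4 members were called, 3 of the 8 and miR-618, against 12.9% of all miRNAs tested. Without CAG replicate 2, 10 were called, 7 of the 8 and miR-573, miR-641 and miR-652-3p. That is 14.3% of the members, against 19.4% of all miRNAs tested. The calls lost without CAG replicate 1 were those of miR-874-3p, miR-592, miR-625-5p, miR-653-5p and miR-943. Their log2 fold changes in that fit were 0.69, −1.32, −1.53, −1.28 and 0.94. All 8 kept their direction in every alternative that tested them. For each, both CAG libraries lay on one side of both PGK libraries. Leaving out a library could therefore hardly change the direction, and the other alternatives used the same libraries.

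**Figure D3:**
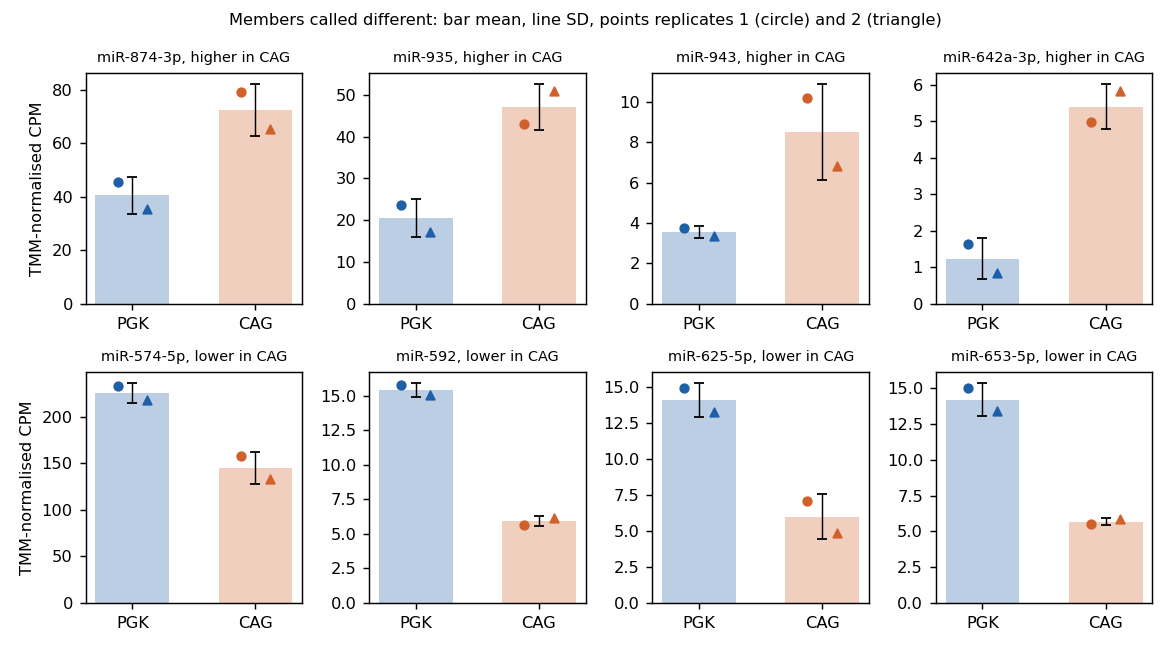
TMM-normalised CPM of the 8 called members in PGK (blue) and CAG (orange) cells; bars are means, lines SD (n = 2), circles replicate 1 and triangles replicate 2. The members shown were picked by the test on these values. In every panel both CAG points lie on the same side of both PGK points, as in 57.2% of all tested miRNAs. Group means are under 50 CPM in 6 of the 8.

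Several other members had groups that did not overlap and unadjusted p-values under 0.05 without passing the adjusted threshold. miR-641, in an intron of the insulin pathway kinase gene AKT2, stood at 119.6 and 116 CPM in PGK and at 244 and 133 CPM in CAG replicates 1 and 2 (log2 fold change 0.69, SE 0.27; edgeR adjusted p = 0.117). miR-573, in an intron of the helicase gene DHX15, had the same shape at a lower level: 14.3 and 13.4 CPM in PGK and 27.6 and 15.6 CPM in CAG replicates 1 and 2 (0.73, SE 0.30; edgeR adjusted p = 0.135). In both, CAG replicate 1 alone was far above the PGK libraries. miR-942-5p, in an intron of the transcription termination factor gene TTF2, had 137 and 166 CPM in PGK and 117 and 97.9 CPM in CAG libraries (−0.49, SE 0.20; edgeR adjusted p = 0.134), and its other arm, miR-942-3p, lay at −0.40 (SE 0.23).

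By place in GENCODE 29, the members came from 55 hairpins on 17 chromosomes. Of these hairpins 43 lay in introns of protein-coding genes on the same strand and 7 overlapped an exon of such a gene. Of the 54 members from introns, 2 were higher and 4 lower, with a median log2 fold change of −0.02; of the 9 from exons, 2 were higher and none lower (edgeR; 14.2% of all tested miRNAs were called). The exon hairpins were those of miR-671 (CHPF2), miR-628 (CCPG1), miR-935 (CACNG8), miR-943 (NELFA), miR-937 (SCRIB), miR-636 (SRSF2) and miR-939 (CPSF1). Outside annotated genes lay the hairpins of miR-551b and of miR-550a copies 2 and 3, while miR-940 overlapped an exon of the non-coding gene AC009065.4. The files hold no mRNA, so the host transcripts themselves were not measured.

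By host gene, several members came from introns of signalling genes. miR-744 lies in the kinase gene MAP2K4, miR-641 in the kinase gene AKT2, miR-582 in the cAMP phosphodiesterase gene PDE4D and miR-933 in the transcription factor gene ATF2. None of the 6 entries from these hairpins was called by edgeR, and 1 had an unadjusted p under 0.05, miR-641 at 0.69 on the log2 scale (14.2% of all tested miRNAs were called and 26.9% had such a p). Both arms of miR-582 had negative values, −0.22 for the 3p arm (SE 0.20) and −0.34 for the 5p arm (SE 0.24), and miR-933 stood at −0.14 (SE 0.46). miR-624-5p, in an intron of STRN3, stood at 0.45 (SE 0.32).

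Of the 5 members from hosts for glycan and lipid enzymes, FUT8, UGT8 and CHPF2, 1 was called, miR-625-5p, which was lower (14.2% called in the table as a whole), and the median log2 fold change was −0.37. miR-577, from UGT8, the enzyme that makes galactosylceramide, had 109 and 129.7 CPM in PGK and 94.4 and 89.5 CPM in CAG libraries (−0.37, SE 0.19). Both arms of miR-671, from CHPF2, an enzyme of chondroitin synthesis, had positive values, 0.16 for the 3p and 0.33 for the 5p arm. The glutamate receptor gene GRM8 and CACNG8, the gene for an auxiliary subunit of such receptors, hosted miR-592 and miR-935, called in opposite directions. miR-598-5p, from XKR6, stood at 0.61 (SE 0.33) beside miR-598-3p at 0.38.

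Some uncalled members varied widely between replicates. miR-605-5p, from an intron of the kinase gene PRKG1, stood at 19.8 CPM in PGK replicate 1 and at 7.11 CPM in PGK replicate 2, and miR-616-5p, from an intron of the stress factor gene DDIT3, at 8.13 and 3.35 CPM. A gap of more than 2-fold between replicates of a group occurred in 8 of the 70 members, 3 in the PGK and 5 in the CAG pair, and miR-642a-5p had the widest, 3 reads in PGK replicate 1 and 24 in PGK replicate 2. miR-590-3p, in an intron of the translation factor gene EIF4H, miR-579-5p, in the RNA-binding protein gene ZFR, and both arms of miR-766, in the septin gene SEPT6, had log2 fold changes between −0.24 and 0.03.

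On the X chromosome lay both arms of miR-652, miR-676 and miR-766. With all 4 libraries, none of these 6 members was called by edgeR or by the DESeq2 and voom alternatives. By edgeR 1 had an unadjusted p under 0.05, miR-652-3p, which was called lower without CAG replicate 2. Of all tested miRNAs 14.2% were called and 26.9% had such a p. The median log2 fold change of the 6 members was −0.08. miR-676-3p, in an intron of the ectodysplasin gene EDA, stood at 75.5 and 82.3 CPM in PGK and 78.1 and 92.7 CPM in CAG libraries. miR-676-5p was at 4.50, 4.46 and 4.81 CPM in both PGK libraries and CAG replicate 1 and at 10.4 CPM in CAG replicate 2. miR-766-3p was at 113 CPM in PGK replicate 1 and between 69.8 and 93.3 CPM in the other libraries. The range within a group was thus as wide as any difference between groups for these 3.

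Entries from hairpins of several copies, miR-941, miR-550a-5p and miR-550a-3p, had log2 fold changes of −0.01, 0.28 (SE 0.18) and −0.29 (SE 0.34), and miR-550a-3-5p stood at 0.21 (SE 0.18). miR-550a-5p and miR-550a-3-5p, whose sequences overlap, lay in the same order in every library, at 112, 120.6, 136 and 147 CPM and at 169.9, 167, 182 and 208 CPM in PGK replicates 1 and 2 and CAG replicates 1 and 2. Of the pair that shares the CGACCCA seed, miR-551b-3p lay at 0.32 on the log2 scale (SE 0.30) and miR-551a, in an intron of MEGF6, −0.45 (SE 0.32). Neither was called.

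The remaining members were not called. Among second arms of abundant hairpins, miR-629-3p stood at 65.7 and 51.0 CPM in PGK and 73.6 and 89.8 CPM in CAG libraries (0.47, SE 0.22; edgeR adjusted p = 0.186), while miR-769-3p, miR-744-3p and miR-652-5p lay at −0.07, 0.10 and −0.30 with groups that overlapped. Between 20 and 40 CPM lay miR-556-3p, miR-556-5p, miR-581, miR-597-3p, miR-659-5p, miR-628-5p and miR-628-3p, with log2 fold changes from −0.24 (miR-597-3p, in an intron of the tankyrase gene TNKS) to 0.17 (miR-659-5p, in ANKRD54). Both arms of miR-556, from an intron of the nitric oxide synthase adaptor gene NOS1AP, were at nearly the same level in all libraries: miR-556-5p stood at 20.02, 20.2, 20.3 and 21.1 CPM. Between 8 and 20 CPM lay miR-551b-5p, miR-561-5p, miR-619-5p, miR-940, miR-627-3p, miR-580-3p, miR-578, miR-937-3p and miR-605-3p. Their log2 fold changes ran from −0.25 (miR-627-3p) to 0.48 (miR-578, in an intron of the carboxypeptidase E gene CPE).

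Under 5 CPM, miR-643, in an intron of ZNF766, stood at 3.75 and 3.90 CPM in PGK and 5.75 and 6.16 CPM in CAG libraries (0.61, SE 0.32; edgeR adjusted p = 0.250). miR-939-5p was the member with the lowest mean, 1.87 CPM, with 21 and 19 reads in PGK and 20 and 2 in CAG libraries (−0.96, SE 0.48). miR-561-3p, miR-589-3p, miR-642a-5p and miR-636, the last at 2.72 to 3.25 CPM, had log2 fold changes of −0.58, −0.78, 0.52 and −0.09 with SE of 0.39 to 0.69. For these 4 a difference of 1 on the log2 scale was less than 3 SE, so changes of that size could go undetected at this depth.

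Both arms were among the members for 20 hairpins, which allowed the arm balance to be compared. The 5p arm was the more abundant in 11 and the 3p arm in 9. The major arm held over 90% of the reads in 10 hairpins, 75% to 90% in 4 and less than 75% in 6. One of the 4 is miR-550a, whose copies were pooled under its name. Its share rests on miR-550a-5p (3965 reads) and miR-550a-3p (697 reads). The 5542 reads of miR-550a-3-5p, from a copy that also gives miR-550a-3p, were not counted, and with them its 5p share would be higher. At one end was miR-589, whose 5p arm held 99.1% and 99.5% in PGK and 99.5% and 99.5% in CAG libraries, and miR-744, with 98.7% to 98.9% in all 4. At the other end miR-598, with a 5p share of 1.15% to 1.72%, gave almost only the 3p arm. The most even hairpins were miR-605, with 5p shares of 67.2% and 49.0% in PGK and 51.0% and 54.4% in CAG libraries, and miR-642a.

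The major arm was the same in all 4 libraries for 18 of the 20 hairpins, and the exceptions were miR-605 and miR-642a. For miR-642a the 5p share was 18.8% in PGK replicate 1, 80.0% in PGK replicate 2, 36.0% in CAG replicate 1 and 25.0% in CAG replicate 2. It rested on 16 and 30 reads in the PGK libraries, and the PGK replicates differed more than the groups did. Intermediate shares were close between libraries for some hairpins and not for others. miR-556 had 5p shares of 35.6%, 36.1%, 33.6% and 36.7% in PGK replicates 1 and 2 and CAG replicates 1 and 2. For miR-628, on a similar number of reads, they were 56.9%, 72.2%, 64.5% and 69.1% in the same order.

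**Figure D4:**
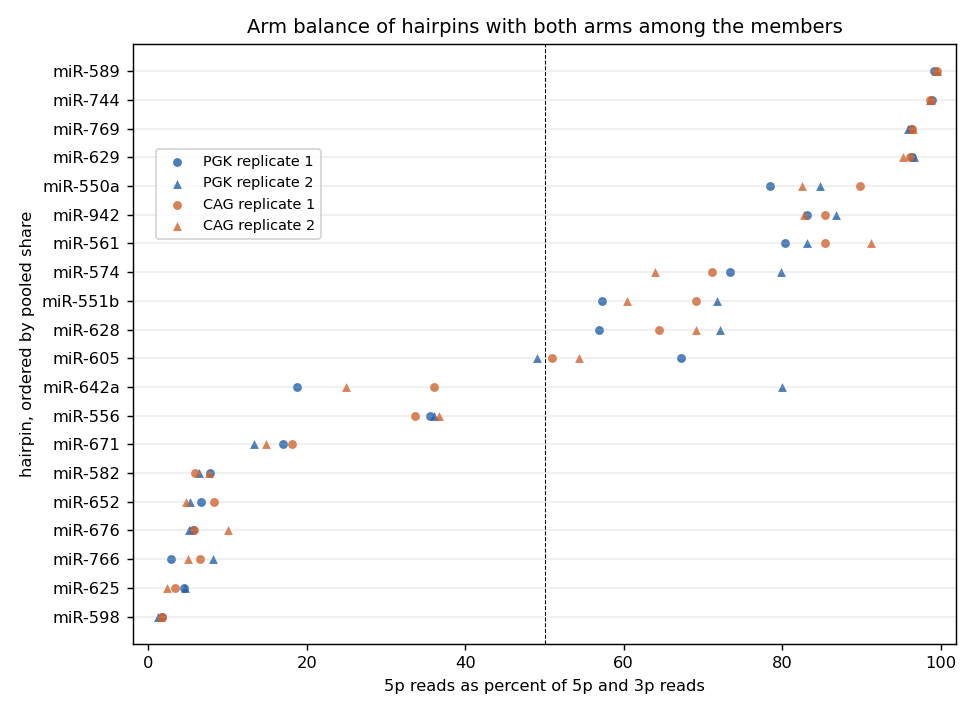
Share of 5p reads among the 5p and 3p reads of each of the 20 hairpins with both arms among the members, by library; blue marks PGK, orange CAG, circles replicate 1 and triangles replicate 2, and the dashed line marks 50%. In 10 of the 20 hairpins the major arm holds over 90%, and miR-605 and miR-642a have points on both sides of the dashed line. The points of miR-550a pool its copies and leave out miR-550a-3-5p.

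The arm balance was tested between the lines with an arm-by-group term in edgeR. None of the 22 member hairpins tested was called, and 0% of all 178 tested hairpins were (1 member hairpin and 12 in all, 6.74%, at an unadjusted p under 0.05; limma on the log2 arm ratio called 1 of the 178 and none from the members). The member hairpin with an unadjusted p under 0.05 was miR-642a, whose arm ratio differed by −1.45 on the log2 scale (SE 0.69, edgeR adjusted p = 0.649). Its 5p shares in the PGK replicates, 18.8% and 80.0%, lay further apart than the groups did. miR-574, whose 5p arm fell while the 3p arm was not called, had a 5p share of 73.5% and 79.8% in PGK and 71.2% and 64.0% in CAG libraries. Its arm ratio differed by −0.62 on the log2 scale (SE 0.34; edgeR adjusted p = 0.669), so the fall of the 5p arm is not shown to differ from the value of the 3p arm. The same held for miR-625, with a 5p share of 4.50% and 4.66% in PGK and 3.29% and 2.39% in CAG libraries (−0.61, SE 0.46; edgeR adjusted p = 0.916). For miR-653 the 5p share was 90.9% and 96.0% in PGK and 81.6% and 81.8% in CAG libraries, and the arm ratio differed by −1.60 (SE 0.82; edgeR adjusted p = 0.649), with 36 reads of the 3p arm in all.

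For other hairpins the second arm was listed but fell under the minimum. miR-590 had 21 reads of its 5p arm against 2563 of the 3p arm, 0.813% (95% exact interval 0.504% to 1.24%), and miR-874 had 10 against 1842. miR-659 gave 748 reads of the 5p and 6 of the 3p arm. miR-619 gave 454 reads of the 5p and 0 of the 3p arm, a 5p share with a 95% exact interval of 99.2% to 100%. In these 4 hairpins the same arm held nearly all reads in every library.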

How the data were processed

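The authors deposited whole-number read counts for 2656 mature miRNAs and for seed families, 1 column per library; trimming, aligner, counting rule and build: not given in the sources used here. Per the labels' protocols, Trizol RNA went into libraries of the NEBNext small RNA type. The replicates of a pair differed beyond counting noise (chi-square per degree of freedom 41.7 for PGK and 79.4 for CAG), so all 4 libraries were used. Tests ran on the whole table in R 4.3.3 with edgeR 4.0.16 (quasi-likelihood, TMM factors 0.935 to 1.08, minimum count 10, minimum total 15, group alone), with Benjamini-Hochberg adjustment over 773 miRNAs and a threshold of 0.05. SE is the absolute log2 fold change over the root of F. Arm balance used 5p and 3p counts per hairpin with library as a block. The code was tested on simulated data. DESeq2 1.42.0 and limma 3.58.1 served as alternatives; Python 3.11.15, numpy 2.4.6, scipy 1.17.1 and matplotlib 3.10.9 did the rest. Named are the 12 most abundant members, every called member, both-arm hairpins, members with listed host genes and those at the edge of the count minimum; the others are named once. Host lists that mixed functions are described by gene. Hairpin positions come from GENCODE 29 (GRCh38) by name; the authors' build may differ. The members and lists were chosen with earlier results of these data known.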

Additional observations from a re-analysis of the deposited data

How the results depend on the processing

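Scaling by RLE or library size, no filter, DESeq2 and limma-voom left the count of called members at 7 or 8, against 8. A minimum of 100 reads for members kept the main fit. It could not change the count, since the called member with the fewest reads, miR-642a-3p, had 101. Under RLE, library size scaling, DESeq2 and limma-voom, 10% to 11.4% of the members were called, against 12.4% to 14.9% of all miRNAs tested. With no filter it was 10% of the members against 5.73% of 1624 miRNAs. The filter of 10 CPM kept 52 members and called 2 higher instead of 4, since miR-943 and miR-642a-3p were then not tested. It called 11.5% of these members, against 17.4% of all miRNAs tested. Leaving out 1 library gave 0 to 10 called members, 0 to 6 higher and 0 to 4 lower; the calls were lost without a PGK library and the cause was not tested. Libraries with the same replicate number showed no shared deviation from their group means: the correlation was −0.00161 over 773 miRNAs. With 2 libraries per group this value cannot settle whether the libraries were paired. With the replicate number as a block 6 members were called, 8.57%, against 8.15% of all miRNAs tested. Lost were miR-574-5p (edgeR adjusted p = 0.0807) and miR-943 (edgeR adjusted p = 0.0522). No member hairpin differed in arm balance under any alternative, by edgeR or by limma. Among the uncalled abundant members, leaving out 1 library changed the sign of miR-941 (−0.35 to 0.26; 0.26 without CAG replicate 2), miR-744-5p (−0.067 to 0.17; −0.067 without CAG replicate 2), miR-769-5p (−0.0089 to 0.10; −0.0089 without CAG replicate 1) and miR-671-3p (−0.0043 to 0.31; −0.0043 without PGK replicate 1). Of the 50 members that were neither called nor among the 12 most abundant, 21 changed sign in some alternative, none with a log2 fold change beyond 0.545, and 2 were called in some alternative.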
